A study of Homo sapiens with 4 samples.

Results

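H3K4me3, the trimethyl mark on lysine 4 of histone H3 that sits at active promoters, was followed over 9 genes of the antigen presentation pathway that trim and load peptides onto MHC class I. The genes were TAPBP, NLRC5, PDIA3, CALR, CANX, ERAP1, ERAP2, LNPEP and SAR1B. Their members in the data were the merged peaks assigned to these symbols within 5 kb of a transcription start site (TSS), 20 of 110018 peaks, of which 34521 lie within 5 kb of a TSS. The 4 CUT&Tag libraries came from wild-type HCC1428 cells, an established human luminal breast adenocarcinoma line. CUT&Tag guides the transposase Tn5 to a histone mark with an antibody, and the fragments that Tn5 cuts next to the mark are sequenced. Cells received the vehicle DMSO or 2.5 µM C48, an inhibitor of the KDM5 enzymes that erase this mark, and were taken on day 5 (2 libraries per group). The labels call the libraries of a group biological replicates without naming their cultures, and the spread between these libraries may be technical. The p-values of the fits below set a change mostly against that spread pooled over all genes or peaks, at similar signal. They measure little of the spread between a single gene's own libraries. The comparison asked whether the promoters of the trimming and loading genes gained or lost H3K4me3 with C48.

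MHC class I molecules show peptides at the cell surface to CD8+ T cells. Peptides reach the endoplasmic reticulum (ER), where the aminopeptidases ERAP1 and ERAP2 shorten them, and LNPEP (also called IRAP) trims peptides in endosomes. New class I chains fold on the chaperone calnexin (CANX), and then join the peptide-loading complex with calreticulin (CALR), the disulfide isomerase ERp57 (PDIA3) and tapasin (TAPBP). SAR1B is a GTPase that starts COPII vesicles leaving the ER, and NLRC5 is the transactivator of class I promoters.

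Depth was 58.4 to 88.4 M aligned tags per library, with 64.0% to 66.3% of tags in the merged peaks. Luminal marker promoters carried the mark: all 11 luminal markers, among them ESR1, GATA3 and KRT8, had gene sums of at least 50 scaled tags per 10 M. That level is common: of 15602 genes with a mean of at least 5, only 1219 lay at 5 to 20 and 1248 at 20 to 50. None of 7 blood and immune markers reached that level; their summed level was 19.5 to 23.1 in DMSO and 41.8 to 44.8 in C48, against 8750 to 9370 and 5770 to 5940 for the luminal markers. Of the others, 2 of 6 basal markers (VIM and MYLK, list sum 188 to 196 in DMSO and 268 to 281 in C48) and 1 of 5 stromal markers (COL1A1, list sum 986 to 993 and 847 to 879) reached it. The part of these levels in the results below was not tested.

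The promoters of the 3 aminopeptidase genes and of both lectin chaperones are printed here, since the first set changed in different directions and the second shared a motif. ERAP1, ERAP2 and LNPEP are neighbours on chromosome 5, with ERAP1 on the minus strand and the other 2 on the plus strand, and their gene starts lie 67.9 kb (ERAP1 to ERAP2) and 59.4 kb (ERAP2 to LNPEP) apart. Sequences are RefSeq promoters (GRCh38.p14, 250 bases before the start and 50 after, 5′ to 3′ on the gene's strand), and capitals mark an interferon regulatory factor (IRF) element, GAAANNGAA on either strand, in the first 2 and an ER stress element, CCAAT followed after 9 bases by CCACG on either strand, in the last 2.
ERAP1 promoter, chr5:96807896-96808195, minus strand: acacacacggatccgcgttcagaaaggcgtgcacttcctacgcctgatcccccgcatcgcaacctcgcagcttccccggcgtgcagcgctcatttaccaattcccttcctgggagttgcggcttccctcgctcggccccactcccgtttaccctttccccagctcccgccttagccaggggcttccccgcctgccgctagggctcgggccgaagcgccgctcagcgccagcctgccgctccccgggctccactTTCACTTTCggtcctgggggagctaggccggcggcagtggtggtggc
ERAP2 promoter, chr5:96876250-96876549, plus strand: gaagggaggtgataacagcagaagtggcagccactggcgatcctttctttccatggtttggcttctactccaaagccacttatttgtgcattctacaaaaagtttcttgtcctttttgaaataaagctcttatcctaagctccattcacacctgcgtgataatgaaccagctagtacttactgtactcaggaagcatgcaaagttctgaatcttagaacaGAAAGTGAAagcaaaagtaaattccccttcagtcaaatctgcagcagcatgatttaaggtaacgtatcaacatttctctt
LNPEP promoter, chr5:96935830-96936129, plus strand: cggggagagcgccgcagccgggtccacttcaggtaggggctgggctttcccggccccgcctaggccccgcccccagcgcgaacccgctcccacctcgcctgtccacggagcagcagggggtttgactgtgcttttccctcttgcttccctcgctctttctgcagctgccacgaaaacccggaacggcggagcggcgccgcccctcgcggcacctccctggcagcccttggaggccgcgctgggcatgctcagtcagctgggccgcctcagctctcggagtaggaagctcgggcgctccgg
CALR promoter, chr19:12938359-12938658, plus strand: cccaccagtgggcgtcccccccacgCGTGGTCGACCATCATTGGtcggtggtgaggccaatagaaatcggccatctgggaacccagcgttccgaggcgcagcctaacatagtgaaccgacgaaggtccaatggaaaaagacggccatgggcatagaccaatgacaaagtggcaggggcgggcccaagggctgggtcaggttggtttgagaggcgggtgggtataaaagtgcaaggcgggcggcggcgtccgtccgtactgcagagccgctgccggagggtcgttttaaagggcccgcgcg
CANX promoter, chr5:179698679-179698978, plus strand: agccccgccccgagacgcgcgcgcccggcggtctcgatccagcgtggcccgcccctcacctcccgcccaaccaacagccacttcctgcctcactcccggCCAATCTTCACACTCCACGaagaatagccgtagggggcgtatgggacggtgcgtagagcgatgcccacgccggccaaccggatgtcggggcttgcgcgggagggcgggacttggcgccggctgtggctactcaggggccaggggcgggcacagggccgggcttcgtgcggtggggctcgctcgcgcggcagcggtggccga

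Of the 9 genes, 7 matched the promoter table with 13 entries; NLRC5 and PDIA3 have no entry. The IRF element occurred in 8.11% of all 35116 promoters of the same length. Among the members it lay in the entries of ERAP1 and ERAP2 printed above and, at 2 overlapping positions, in the TAPBP promoter. The other entry of ERAP1 (chr5:96814096-96814395) and that of ERAP2 (chr5:96875734-96876033) held none. Distances of the ERAP2 peaks below are counted from a start upstream of the printed ERAP2 promoter. The ER stress element was in 0.0769% of all promoters (27 entries), and was present in the CALR promoter and in 3 of 4 CANX entries. The LNPEP promoter printed above held neither element and 2 GC boxes (GGGCGG, found in 45% of promoters). The GAS element TTCNNNGAA, found in 7.66% of promoters, was seen among the members only in the promoter of the second LNPEP start, and no member promoter held the CRE TGACGTCA (1.85%). CCAAT alone was in 34.6% of promoters, with 4 copies in the CALR promoter, and overlaps the ER stress element. A match is a description of the letters.

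On the main scaling H3K4me3 fell at 7 of the 8 testable genes with C48 and rose at ERAP2. Sums over a gene's peaks were scaled with TMM factors, which take most peaks as unchanged, and tested with limma across all genes. No fly spike-in entered any scaling used here, so that a fall or a rise is relative to the other peaks of the libraries, and a change shared by the whole genome is not visible. The paper reports a global rise of H3K4me3 with C48 and fewer fly reads in the C48 libraries. By its account, peaks in those libraries come out too low unless scaled to the spike-in. Falls given here are therefore no measure of an absolute loss of the mark. ERAP1, CALR and LNPEP had log2 fold changes of -0.89, -0.86 and -0.70, followed by PDIA3 (-0.58), NLRC5 (-0.43) and SAR1B (-0.20). CANX, whose peaks are split between 2 contigs, was -0.45 over both and -0.72 (adjusted p = 0.00102) on the primary chromosomes alone, and has no firm place in this order. Over all 15602 genes tested, 59.5% were called lower and 20.5% higher with C48 at a limma adjusted p below 0.05, and the median log2 fold change was -0.32, so that a fall was the usual outcome. The members' median was -0.52. Stronger genes fell more as a rule: the median of genes of the same strength was -0.61 for LNPEP, -0.51 for CALR, -0.38 for ERAP1, PDIA3 and SAR1B, and -0.15 for NLRC5 and ERAP2, and it was 0.10 for CANX as summed over both contigs. All 8 had passed the filter on low values (a mean of at least 5). A fall of the mark in every cell and its loss in some cells cannot be told apart in bulk libraries.

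The scaling set several of these directions. Between the groups the TMM factors are 0.34 apart on the log2 scale, a step that lowers the C48 libraries and that the deposited values per 10 M aligned tags lack. By the paper's account, spike-in scaling moves them the other way. TMM takes most peaks as unchanged, yet 36.3% of the tested peaks were then called higher and 34.2% lower. The falls are therefore not a better estimate than the deposited values. Per 10 M tags, 39.5% of all genes went up and 37.2% down, with the column total as the scale 42.7% and 34.1%, 78.1% and 5.94% with ribosomal protein promoters as the scale, and 15.7% and 67.7% after DESeq2 size factors. ERAP1 and CALR were below 0 and ERAP2 above 0 on all 5 scalings, although the fall of CALR did not pass the test on ribosomal protein promoters (-0.10, adjusted p = 0.0688). SAR1B turned to 0.14 per 10 M tags, 0.18 by column total and 0.57 on ribosomal protein promoters. LNPEP, PDIA3, CANX and NLRC5 were below 0 on every scaling but the ribosomal protein promoters, where they were 0.06, 0.18, 0.30 and 0.33. The order of the 7 genes other than CANX was the same on all 5 scalings. A scaling shifts all genes by nearly the same amount, so it could hardly have changed that order. With TMM, ERAP1 and CALR lay at percentiles 5.1 and 6.4 of the log2 fold changes of all genes, LNPEP at 16, PDIA3 at 26.5, NLRC5 at 40.5, SAR1B at 59 and ERAP2 at 83.4.

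**Figure D1:**
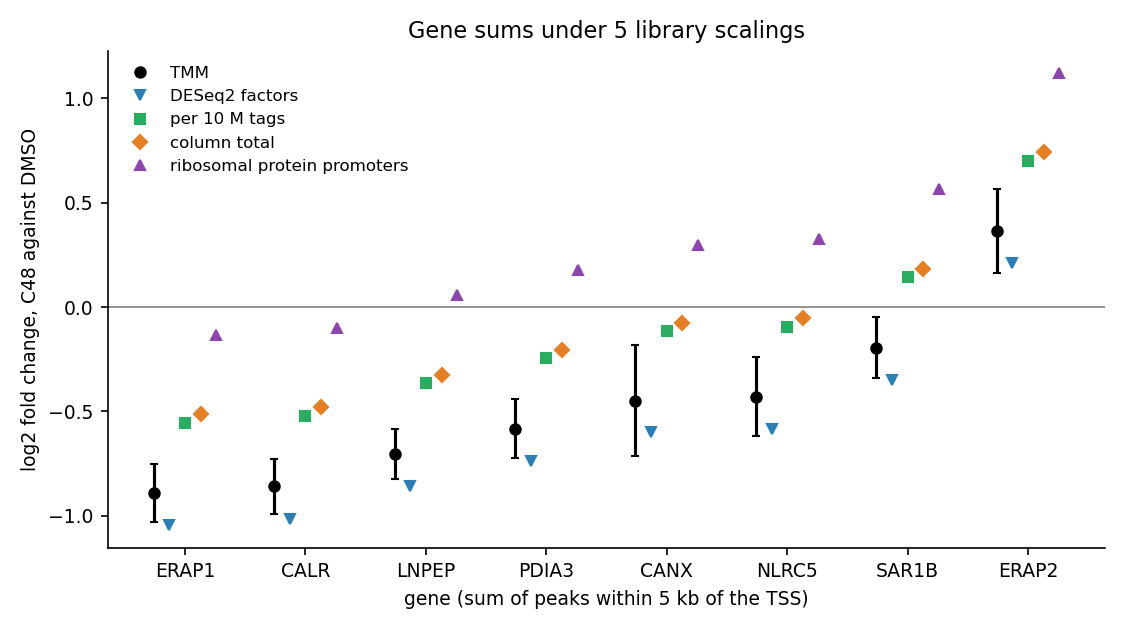
Log2 fold change of the summed H3K4me3 signal (C48 against DMSO, y axis) for the 8 testable genes (x axis) under 5 library scalings, with limma 95% intervals on the TMM values (2 libraries per group). ERAP1 and CALR are below 0 and ERAP2 above 0 on every scaling, SAR1B is below 0 with TMM and DESeq2 factors only, and LNPEP, PDIA3, CANX and NLRC5 rise above 0 on ribosomal protein promoters.

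Among the aminopeptidases, ERAP1 lost signal at its TSS. The ERAP1 TSS peak (chr5:96807360-96808133, 774 bases, GENCODE v44 first exon and intron, centre 199 bp inside the gene) had 349.5 and 355.8 tags per 10 M as deposited in DMSO and 211.7 and 239.3 in C48. Both C48 libraries lay well below both DMSO libraries, and the scaled log2 fold change was -0.98 (SE 0.075, limma adjusted p = 2.4e-29). A second, weak ERAP1 peak (chr5:96808474-96808774, between genes) had 28.5 and 42.4 in DMSO against 40.4 and 36.9 in C48. Its distance of -435 bp is counted from another RefSeq start than that of the TSS peak, so it lies farther upstream of the latter. There the groups overlapped and the change was not called (-0.18, 95% interval -0.48 to 0.11, adjusted p = 0.268); it was above 0 per 10 M tags (0.15), by column total (0.19), on ribosomal protein promoters (0.56) and without DMSO replicate 2 (0.06). It was called lower with DESeq2 size factors (-0.33, adjusted p = 0.0465) and without DMSO replicate 1 (-0.43, adjusted p = 0.0141). At the level of single peaks 34.2% of the 43319 tested were called lower and 36.3% higher.

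ERAP2, which encodes the partner aminopeptidase of ERAP1, was the 1 testable member whose summed signal rose. Its gene sum went from 101 and 78.0 to 115.6 and 113.6 scaled tags per 10 M (log2 fold change 0.37, SE 0.10, limma adjusted p = 0.00062). Without DMSO replicate 2, the lowest library, the value was 0.18 (adjusted p = 0.109). The first ERAP2 peak (chr5:96876118-96876902, over exon 1, centre at 571 bp) had 72.4 and 62.1 deposited tags per 10 M in DMSO and 99.4 and 100.7 in C48. Its scaled change of 0.24 stood near the threshold (adjusted p = 0.0468), and the call was lost with DESeq2 size factors (0.08, adjusted p = 0.488), with edgeR (adjusted p = 0.0635) and DESeq2 (0.327) on recovered tags, with the replicate block (0.0553), with no filter (0.0755) and without 1 library: DMSO replicate 2 (0.09), C48 replicate 1 (0.25) or C48 replicate 2 (0.22).

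The gain at ERAP2 was larger farther into the gene. A peak centred 1283 bp downstream in intron 1 went from 15.3 and 9.0 deposited tags per 10 M to 31.01 and 26.7, and HOMER had called it in both C48 libraries and in neither DMSO library. Its scaled log2 fold change was 0.90 (SE 0.20, limma adjusted p = 2.37e-05), the largest rise among the 13 tested member peaks. The size rests on the DMSO libraries: it was 0.52 (adjusted p = 0.0186) without DMSO replicate 2 and 1.29 without DMSO replicate 1, and the peak's mean was under 20. The deposited annotation places this peak in an AluSx element, a repeat with many near-identical copies, so its reads are less certain than those of unique sequence. Both ERAP2 peaks and the LNPEP upstream peak also overlap an antisense long noncoding RNA gene, ENSG00000247121, whose 5′ end lies next to LNPEP, and CUT&Tag does not tell strands apart.

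LNPEP carried the strongest signal of the members, in 3 adjoining peaks that moved apart. In DMSO the peak over the LNPEP TSS (chr5:96935833-96936566, centre at 119 bp) had 609.6 and 598.0 deposited tags per 10 M, and in C48 409.9 and 402.4. The upstream peak (chr5:96934843-96935752, centre at -783 bp) is upstream of the RefSeq start only, and holds the GENCODE v44 start of LNPEP (chr5:96935394). It went from 478.7 and 469.8 to 289.5 and 308.0. Scaled, these log2 fold changes were -0.91 (limma adjusted p = 6.91e-32) and -1.004 (adjusted p = 1.14e-33), and both stayed below 0 on all 5 scalings. The peak 733 bp downstream (chr5:96936583-96937043) instead had 238.5 and 235.4 in DMSO and 321.4 and 309.6 in C48. HOMER had called it as a peak in the C48 libraries only, but its calls here did not follow the signal. The upstream peak was called in DMSO replicate 1 only, and the TSS peak was not called in C48 replicate 1, at 409.9 tags per 10 M. After TMM scaling this downstream peak was not called (0.07, 95% interval -0.08 to 0.22, adjusted p = 0.386), with DESeq2 size factors it was -0.08, and it was called higher per 10 M tags (0.41), by column total (0.45) and on ribosomal protein promoters (0.83).

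A ratio of peaks within a library does not depend on the scaling. The ratio of the downstream to the TSS peak of LNPEP was 0.391 and 0.394 with DMSO and 0.784 and 0.769 with C48, a 1.98-fold difference. The ratio of the upstream to the TSS peak of LNPEP was 0.785 and 0.786 in DMSO and 0.706 and 0.765 in C48. The upstream peak, which holds the GENCODE start, thus kept pace with the TSS peak far more closely than the downstream peak. The ratio of the ERAP1 upstream to the ERAP1 TSS peak was 0.0816 and 0.119 in DMSO and 0.191 and 0.154 in C48, and that of the ERAP2 intron to the first ERAP2 peak was 0.211 and 0.145 in DMSO and 0.312 and 0.265 in C48. Between genes, the ERAP2 to ERAP1 ratio of the gene sums went from 0.232 and 0.178 to 0.517 and 0.461, a 2.4-fold rise, and the ERAP2 to LNPEP ratio from 0.0661 and 0.0545 to 0.128 and 0.125, a 2.1-fold rise. In each of these ratios the 2 groups did not overlap, and how often this holds for ratios over all genes was not counted. The ratios were chosen after the values were seen. The two-sided exact permutation test of 2 against 2 libraries cannot go below p = 0.333, the value that each gave.

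**Figure D2:**
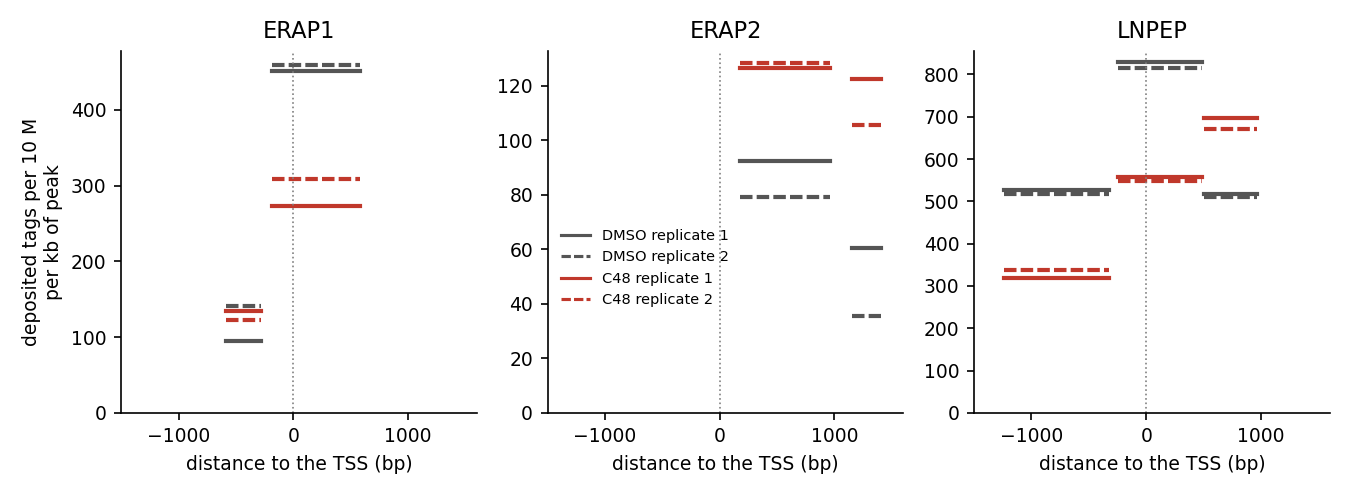
Deposited H3K4me3 signal (y axis, tags per 10 M aligned tags per kb of peak) of the tested peaks of ERAP1, ERAP2 and LNPEP against distance to the RefSeq TSS (x axis, bp, positive into the gene). Each line spans 1 peak in 1 library. Both ERAP1 peaks are placed from different RefSeq starts, so the gap between them is drawn too small. The C48 lines lie below the DMSO lines at the ERAP1 and LNPEP TSS and upstream of LNPEP, above them at both ERAP2 peaks and downstream of LNPEP, and among them upstream of ERAP1; other scalings move all C48 lines together.

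LNPEP was also 1 of 2 members for which signal 0.5 to 5 kb from the TSS could be set against signal within 0.5 kb in the same library. Its flank minus core difference rose by 0.36 on the log2 scale with C48 (SE 0.068, limma adjusted p = 0.00414). The flank, set by the RefSeq start, pools the downstream peak with the upstream peak, which fell and holds the GENCODE start. For CANX the rise was 0.62 (SE 0.18, adjusted p = 0.0202), and its core and flank pool peaks on 2 contigs; the call was lost without DMSO replicate 2 (0.50) or C48 replicate 2 (0.41). Among all 5596 genes with both regions 73.6% were called higher and 6.58% lower on this measure, with a median of 0.69, so both members lay on the usual side and below the median. A second RefSeq start of LNPEP, some way inside the gene, carried next to no signal, with 3 peaks of 0 to 0.34 deposited tags per 10 M in any library, and none of them was called.

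Calreticulin, the soluble lectin chaperone, fell with C48. The CALR promoter held 1 broad peak (chr19:12937936-12939548, 1613 bases, over the TSS and exon 1) with 507.4 and 466.6 deposited tags per 10 M in DMSO and 329.3 and 348.2 in C48. Scaled sums were 548 ± 50.8 and 301 ± 13.2 (SD, n = 2 per group), a log2 fold change of -0.86 (SE 0.068, limma adjusted p = 1.95e-35). Genes of the same strength, 400 to 800 scaled tags per 10 M, had a median of -0.51.

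Calnexin, the membrane-bound relative of calreticulin, was split between 2 contigs in the deposited table. On chromosome 5 its TSS peak (chr5:179698895-179699402, centre at 181 bp) had only 17.2 and 12.5 deposited tags per 10 M in DMSO and 11.5 and 9.5 in C48. A peak assigned to a CANX start on a fix patch of chromosome 5 (centre at 392 bp) had 31.6 and 31.1 in DMSO and 29.6 and 29.3 in C48. Both were called lower after TMM scaling (-0.77, adjusted p = 0.00218, and -0.41, adjusted p = 0.0161), neither per 10 M tags, and the fix patch peak turned to 0.33 on ribosomal protein promoters. The call at 181 bp was lost without DMSO replicate 1 (-0.52, adjusted p = 0.0898). The call at 392 bp was lost without DMSO replicate 1 (adjusted p = 0.0633), C48 replicate 1 (0.0752) or C48 replicate 2 (0.0784), and with the DESeq2 test on recovered tags (0.0838). The remaining 2 CANX peaks stayed under the mean of 5: 1 at 624 bp held 3.08 to 6.45 and 1 at -636 bp on the fix patch went from 0.23 and 1.39 to 3.60 and 3.99. With this split the CANX sum of 58.5 ± 7.54 scaled tags per 10 M in DMSO (SD, n = 2) cannot be compared with other genes, and how reads that fit both contigs were placed was not tested.

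PDIA3, which encodes ERp57, held 343.5 and 334.1 deposited tags per 10 M in DMSO and 272.0 and 300.1 in C48 in a single TSS peak (chr15:43746106-43746966). The scaled log2 fold change was -0.58 (SE 0.072, limma adjusted p = 2.49e-15), against a median of -0.38 for genes of 200 to 400 scaled tags per 10 M. The peak also overlaps the start of CATSPER2P1, a pseudogene on the other strand. TAPBP, the gene for tapasin, could not be measured. Its 2 peaks were listed on an alternate contig of chromosome 6 and held 0 tags in all 4 libraries, which allows up to 0.339 to 0.514 tags per 10 M by library at 3 tags, counting error only. Of the 31-base words of these peaks, 90.5% and 82.3% also occur on chromosome 6 itself. No peak with a member's symbol overlapped the GENCODE position of TAPBP (chr6:33299694-33314284), and peaks assigned to other genes were not searched there. These zeros therefore give no level for TAPBP.

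NLRC5 and SAR1B had smaller changes. The NLRC5 peak (chr16:56989446-56989961, centre at 146 bp) held 123.1 and 128.5 deposited tags per 10 M in DMSO and 113.4 and 122.2 in C48. Its scaled log2 fold change was -0.43 (SE 0.097, limma adjusted p = 1.38e-05), and it was not called per 10 M tags (-0.09) or on the column total (-0.05). The SAR1B peak (chr5:134632331-134632912, centre at 207 bp) held 252.2 and 271.3 in DMSO and 287.8 and 290.1 in C48 as deposited, so the unscaled C48 libraries were the higher ones. After TMM scaling they became the lower ones (290.5 and 298 against 255.1 and 258.7, log2 fold change -0.20, SE 0.075, adjusted p = 0.012), and the call was lost without C48 replicate 1 (adjusted p = 0.129) or C48 replicate 2 (0.0898). Genes of its strength had a median of -0.38. Within libraries, the ratio of CALR to SAR1B went from 2.01 and 1.72 to 1.14 and 1.20, a fall to 0.63-fold that no scaling alters.

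**Figure D3:**
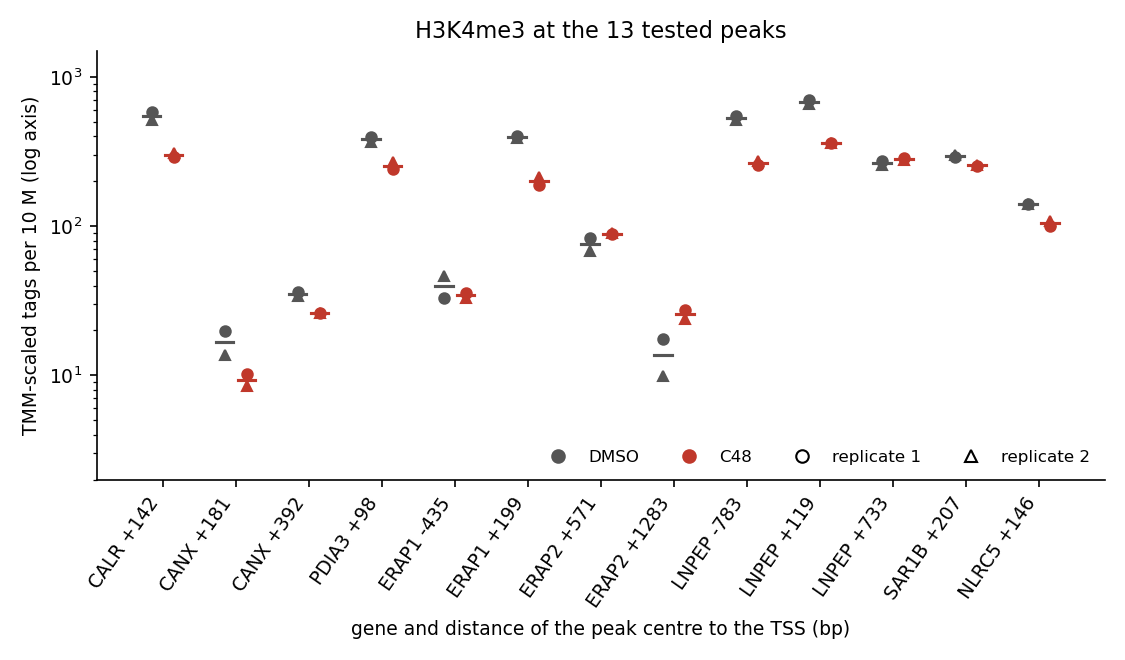
H3K4me3 at the 13 tested member peaks (x axis, gene and distance of the peak centre to the TSS) as TMM-scaled tags per 10 M (y axis, log axis), with 1 point per library and a bar at the mean of each group (n = 2). With this scaling 9 peaks are lower in C48, both ERAP2 peaks are higher, and the ERAP1 -435 and LNPEP +733 peaks are not called; on the deposited scale SAR1B is higher in C48.

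On the main scaling, the calls of the members' peaks went with their base composition, while the sizes of the changes overlapped. In each peak on chromosomes of the main assembly the number of CpG dinucleotides was set over the number expected from its C and G content. The 8 tested peaks with a ratio of 0.66 to 0.90 were all called lower, and the 4 with a ratio of 0.21 to 0.48, the ERAP2 pair, ERAP1 -435 and LNPEP +733, held 2 called higher and 2 not called. Over all tested peaks within 5 kb of a TSS, 57.0% of the 21643 with a ratio of at least 0.5 were lower and 19.5% higher (median log2 fold change -0.32), and 65.8% of the 5346 under 0.5 were higher and 8.6% lower (median 0.66). Within peaks of 200 to 400 scaled tags per 10 M the medians were -0.49 and 0.15. SAR1B +207 and LNPEP +733, 2 peaks of that range, had ratios of 0.66 and 0.48 and changes of -0.20 and 0.07. The weaker ERAP1 -435 peak (ratio 0.35, mean 37.04) changed by -0.184, nearly as much as SAR1B +207 (-0.195, mean 275.6). Only SAR1B was called, with an SE of 0.0754 against 0.15, and per 10 M tags it was above 0 (0.143). The value of 0.5 was chosen after the members' values were seen, and CpG-poor peaks were also weaker or farther from the TSS; their separate parts were not tested.

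**Figure D4:**
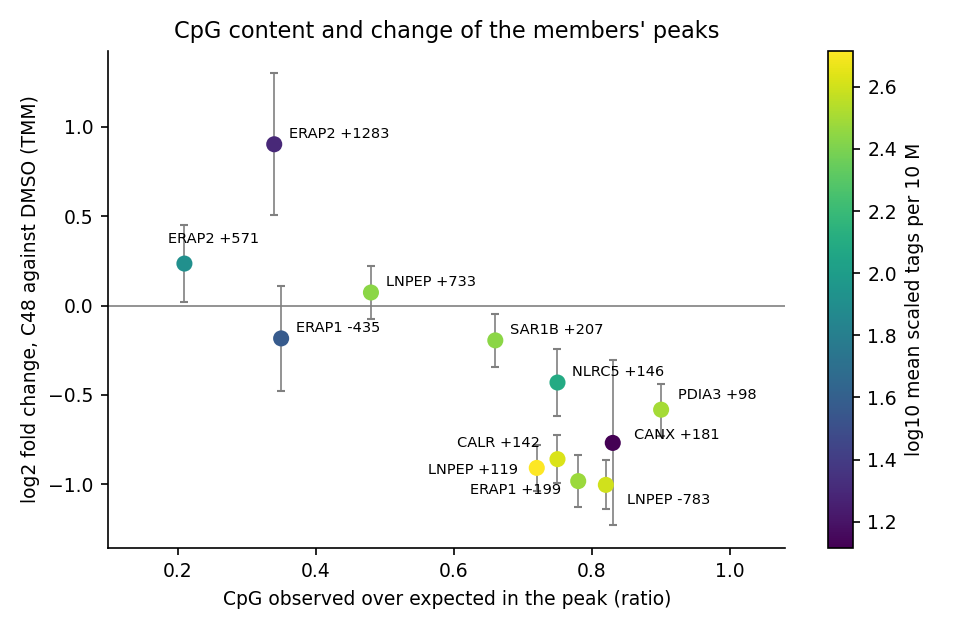
TMM-scaled log2 fold change with C48 (y axis, limma 95% intervals) of the 12 tested member peaks on the main chromosomes against their CpG observed over expected ratio (x axis); colour gives the mean scaled tags per 10 M on a log10 scale. The 8 peaks at 0.66 or above lie below 0 and the ERAP2 peaks at 0.21 and 0.34 above 0; other scalings shift all points up or down by nearly the same amount, which takes SAR1B and others across 0.

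The wider pathway was described with 5 gene lists, by counts, against the 59.5% lower and 20.5% higher of all genes. Of 16 genes for class I chains, peptide transport and the immunoproteasome, 7 could be tested, and 5 were lower and 2 higher (median log2 fold change -0.59). TAPBPL, which encodes the tapasin-related protein TAPBPR that edits peptides on class I, had the largest rise: its promoter peak (chr12:6451191-6452438) went from 91.2 and 97.96 to 442.1 and 421.5 deposited tags per 10 M. The scaled change was 1.84 (SE 0.082, limma adjusted p = 5.93e-109), and it stayed between 1.69 and 2.60 on every scaling. IFI30, a lysosomal thiol reductase of class II processing, also rose (0.86, adjusted p = 2.2e-14). HLA-B, a class I heavy chain whose reads can be shared with its relatives, fell by 0.66 (adjusted p = 1.73e-19) but was 0.10 on ribosomal protein promoters.

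Of 9 genes for CIITA and the factors that work with it and with NLRC5 on MHC promoters, 7 were tested, and 5 were lower, 1 higher and 1 not called (median -0.46). CIITA, the class II transactivator and a relative of NLRC5, was the 1 that rose (0.72, limma adjusted p = 2.23e-08). The CCAAT-binding subunits NFYA (-0.995) and NFYB (-0.65) and the CRE-binding factor ATF1 (-0.58) fell; on ribosomal protein promoters NFYB was 0.11 and ATF1 0.18.

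The tested ER folding genes went with the majority. Of 14 ER chaperone genes, 10 were tested and 10 were lower (median -0.58). The 3 with the smallest p were UGGT1, the folding sensor that returns glycoproteins to calnexin and calreticulin (-0.84), and the disulfide isomerase genes PDIA6 (-0.71) and ERP44 (-0.61). On ribosomal protein promoters PDIA6 was 0.05, ERP44 0.15 and UGGT1 -0.08. Of 12 COPII genes, 11 were tested and 10 were lower (median -0.54). The coat gene SEC31A (-0.78), SAR1A, the paralogue of SAR1B (-0.75), and PREB, the exchange factor for SAR1 proteins (-0.74), fell; on ribosomal protein promoters they were -0.02, 0.01 and 0.02.

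Of 12 other peptidase genes, 11 were tested, and 9 were lower, 1 higher and 1 not called (median -0.57). NLN (-0.78), LTA4H (-0.79) and NPEPPS, a cytosolic aminopeptidase (-0.67), fell, and were -0.02, -0.03 and 0.09 on ribosomal protein promoters. ENPEP, the glutamyl aminopeptidase of the cell surface, was the 1 that rose (0.76, limma adjusted p = 0.00303); the call was lost without DMSO replicate 2 (0.48) or C48 replicate 1 (0.35). CIITA and ENPEP are named because they were the lists' only higher calls besides TAPBPL and IFI30, a choice made after their values were seen.

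**Figure D5:**
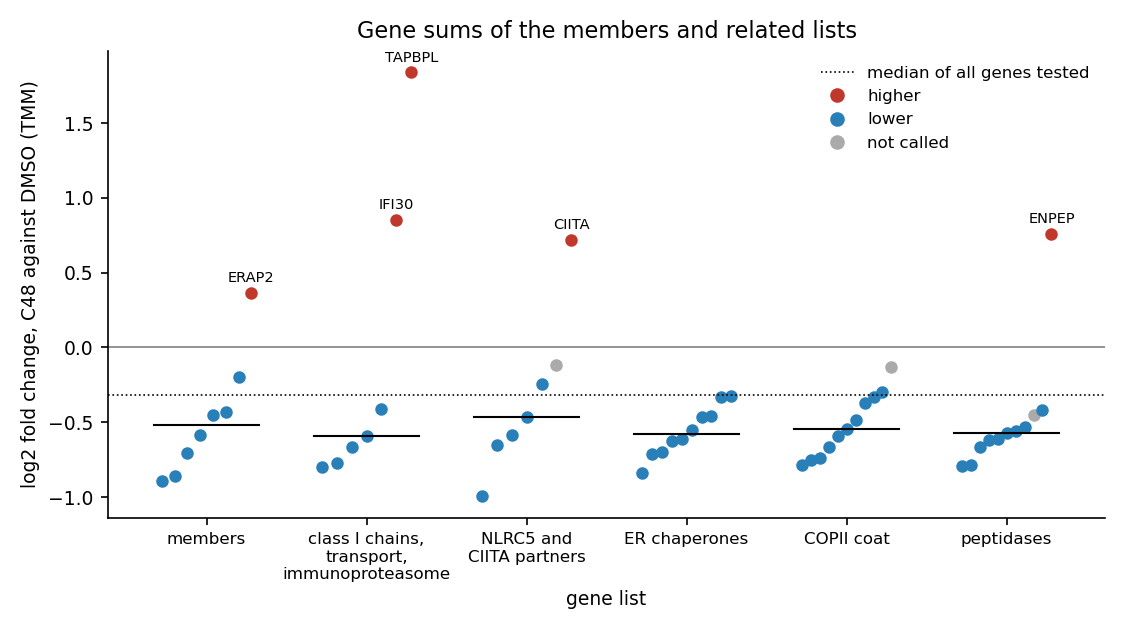
TMM-scaled log2 fold change of gene sums with C48 (y axis) for the 8 testable members and the tested genes of 5 related lists (x axis); red points were called higher, blue lower and grey neither, short lines are list medians and the dotted line the median of all genes (-0.32). Every list has most of its points below 0, and TAPBPL at 1.84 stands above all others; on ribosomal protein promoters most of the lower points move above 0.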

How the data were processed

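H3K4me3 CUT&Tag was analysed in 4 HCC1428 libraries, 2 with DMSO and 2 with C48 (columns tagged GNE, matched through the sample descriptions). Titles gave the groups and replicate numbers. The authors, per the submitters' processing notes, used Bowtie2 2.3.4.1 and hg38, called peaks with HOMER per library and merged them with peaks from other cell lines. The deposited values are signal, HOMER tags scaled to 10 M aligned tags, without spike-in scaling. Spike-in counts were not used here, so a genome-wide change is not visible. All values were whole multiples of what 1 tag is worth (100% within 0.1 tags), which gave the depths; intervals and limits at 0 cover counting error only. The deposited repeat table was not used here.

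Signals were scaled with TMM factors (edgeR 4.0.16) and tested as log2(value + 1) with limma-trend (limma 3.58.1, R 4.3.3) over 43319 peaks with a mean of at least 5, over 15602 gene sums of all peaks within 5 kb of a TSS, and over 5596 differences of the signal at 0.5 to 5 kb from that within 0.5 kb; every peak of a gene symbol entered its sum. Fold changes are on this scale and understate changes of weak peaks. Adjusted p-values are Benjamini-Hochberg values over all features, with calls at 0.05. The fits were tested on simulated data. Alternatives were other scalings, pseudocounts, filters, windows and peak sets, count tests (edgeR, DESeq2 1.42.0) on read pairs from recovered tags, a replicate block and leaving out each library. The DESeq2 test estimated its own size factors, so it changed the scaling as well as the test. Positions are from GENCODE v44, CpG content from hg38 and promoters from RefSeq. Named genes are the 9 members and up to 3 genes with the smallest p in each pathway list, with CIITA and ENPEP added. The members and lists were chosen with earlier results of these data known. Tables, ratios and plots used Python 3.11.15, numpy 2.4.6, pandas 2.3.3, scipy 1.17.1 and matplotlib 3.10.9.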

Additional observations from a re-analysis of the deposited data

How the results depend on the processing

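Of the 13 tested member peaks, 2 were higher and 9 lower. Per 10 M tags, and likewise by column total, 4 were higher and 5 lower, against 7 and 3 on ribosomal protein promoters; of all tested peaks 54.7%, 57.3% and 80.1% were then higher and 20.9%, 19.2% and 4.91% lower. With DESeq2 size factors, a mean of at least 20, the edgeR test, the DESeq2 test or the replicate block, 1 peak was higher; without 1 library at a time 1 to 2 were higher and 7 to 9 lower. Of the 8 genes, 1 was higher and 7 lower, against 2 and 4 per 10 M tags and by column total, 5 and 1 on ribosomal protein promoters, 4 lower with the DESeq2 test, 0 higher and 2 lower of 3 with promoter-TSS peaks alone, and 0 to 1 higher without 1 library at a time. The flank minus core rise held in 1 member in place of 2 with a mean of at least 20, primary chromosomes only or called peaks only, which leave CANX out and LNPEP in, and in 1 to 2 without 1 library at a time; with a 1 kb core the 1 member that could be tested was ERAP2, and it was higher. Of the pathway genes, 4 were higher and 39 lower, against 31 and 1 on ribosomal protein promoters, 25 lower with the DESeq2 test and 22 lower with promoter-TSS peaks alone.

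Directions turned as follows. Other scalings shift all log2 fold changes by nearly the same amount. The DESeq2 test used its own size factors in place of TMM, and the median of all gene sums was then 0 in place of -0.32. Causes of the other turns were not tested. Of 2 peaks with no call, ERAP1 at -435 bp was 0.146 per 10 M tags, 0.187 by column total and 0.062 without DMSO replicate 2, and LNPEP at 733 bp was -0.08 with DESeq2 size factors. SAR1B, peak and sum, was 0.143 per 10 M tags, 0.184 by column total and 0.565 on ribosomal protein promoters, while the sum was 0.13 with the DESeq2 test. On ribosomal protein promoters PDIA3 was 0.178 and NLRC5 0.326 (peak and sum), ERAP1 at -435 bp 0.559, CANX at 392 bp 0.325, the CANX sum 0.299 and the LNPEP sum 0.058; HLA-B was 0.099, NFYB 0.111, ATF1 0.178, PDIA6 0.053, ERP44 0.151, SAR1A 0.011, PREB 0.021 and NPEPPS 0.094. With promoter-TSS peaks alone NFYB was 0.979. For single genes and peaks, 42 further values kept their direction but lost the call, and 5 gained one.

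Replicate numbers are shared by both groups, but did not pair the libraries (the deviations of same-numbered libraries correlated at r = -0.035 over 43319 peaks); with the replicate block 1 member peak was higher and 9 lower, 1 gene was higher and 7 lower, and the first ERAP2 peak was not called (0.235, limma adjusted p = 0.0553). Depth limits the weak peaks most: 7 of the 20 member peaks, among them both of TAPBP, had means under 5 and were not tested.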

Other observations

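Outside the 5 kb window, 11 more peaks carry the symbol of a member, and 2 of them passed the filter on low values. An intergenic peak between ERAP1 and ERAP2 (chr5:96843270-96843602), 29.3 kb upstream of an alternative ERAP1 start and farther from the start under the ERAP1 TSS peak, had 1.81 and 4.18 deposited tags per 10 M with DMSO and 15.42 and 19.27 with C48. A peak 45.6 kb downstream of the SAR1B TSS, past the end of the gene in GENCODE (chr5:134586967-134587467), had 12.33 and 9.29 with DMSO and 4.80 and 4.13 with C48. Each of these 2 passed the filter only through the group where it was high, and no test is given for them. A second, weaker ERAP1 intergenic peak next to the first went from 0.23 and 0 to 9.42 and 10.18 deposited tags per 10 M and was under the filter. These peaks were looked at after their values were seen, and the assignment to a gene is only the nearest TSS.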
